A study of Mus musculus with 4 samples.

Results

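The genes described here encode the ATP-binding cassette (ABC) proteins of subfamilies A to G and the organic anion, cation and zwitterion carriers of the Slco and Slc22 families. The rule that picks them reads the gene symbol alone and no measured value, and it left out Abcb11, the bile salt export pump of the hepatocyte. It gave 90 of the 24138 gene rows in the table, made up of 49 ABC genes, 26 Slc22 rows (the pseudogene row Slc22a13b-ps among them) and 15 Slco genes. RNA came from 4 livers of C57BL/6J males at 18 weeks of age, each taken here as 1 mouse. Every animal had been through the FAT-MASH model of steatohepatitis and had received resolvin D1, a lipid mediator of the resolution of inflammation. What the model consists of is not described here. These 4 livers are 1 group, numbered 1 to 4 as in the labels. No livers without the model or without resolvin D1 were analysed here. The values therefore describe levels and their spread between treated animals, and no effect of the model or of resolvin D1 can be read from them. The tissue is whole liver, in which fewer cells of a type and less RNA per cell cannot be told apart.

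A hepatocyte has a sinusoidal face turned to the blood and a canalicular face turned to the bile. Slco and Slc22 carriers at the sinusoidal face take up bile acids, bilirubin, hormones, drugs and organic cations, while ABC proteins use ATP to push bile salts, phospholipid, cholesterol, conjugates and drugs into bile or back into blood. Other ABC proteins move fatty acids into peroxisomes or lie in mitochondrial membranes, and the Abce and Abcf proteins keep the ATPase domains but work at the ribosome instead of moving a substrate.

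Levels are in FPKM, fragments scaled by transcript length and library size, so genes can be set beside each other. An estimate from the lowest values gave 18.8 to 20.1 M fragments (M, mega) per library, so a lone fragment adds 0.0498 to 0.0531 FPKM to a transcript of 1 kb. No member had the same value above 0 in any pair of livers. Hepatocyte markers were high, with Apoa1 between 11922 and 15343 FPKM and Ttr between 4452 and 6472 FPKM, although Alb was listed at 0 in all 4 livers. Of 6 kidney tubule markers, 5 were listed at 0 in every liver and Lrp2 reached no more than 0.0855 FPKM. Liver 2 was highest in each of 10 acute phase genes, whose summed level was 15650 FPKM there against 5047 to 7306 FPKM in the other livers. The gap varied between these genes: Saa1 was at 2135 FPKM in liver 2 against 45.6 to 139 FPKM in the others. Hp was at 3598 FPKM in liver 2 and 2454 FPKM in liver 4, and Saa3 at 25.6 and 25.3 FPKM. Without liver 2 the count of expressed members given below was 44 in place of 46, and their median SD 0.14 in place of 0.16.

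Of the 90 members, 62 were above 0 in all 4 livers, 13 were above 0 in some livers and 15 were listed at 0 in every liver. These are 68.9%, 14.4% and 16.7% of the members, against 58.1%, 9.72% and 32.2% of all rows. A mean of at least 1 FPKM, here called expressed, was reached by 46 members, or 51.1%, where 43.7% of all rows in the table reached it. At the higher levels the members were more frequent than the table as a whole: 28 members (31.1%) had a mean of at least 10 FPKM against 18.8% of all rows, and 11 (12.2%) had at least 50 FPKM against 5.83%. Every Abcd, Abce and Abcf gene was expressed, as were 8 of 16 Abca, 6 of 9 Abcb, 6 of 10 Abcc, 4 of 6 Abcg, 6 of 15 Slco and 8 of 26 Slc22 rows. Together the members summed to 1827, 1691, 1707 and 2035 FPKM in livers 1 to 4, which is 0.340% ± 0.0153 (SD, n = 4) of the summed table.

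Few genes carried most of that sum: the 10 members with the highest means over the 4 livers held 73.5% ± 2.06 (SD, n = 4) of it. Slco1b2 encodes the liver's main organic anion uptake carrier and Abcd3 a fatty acid importer of the peroxisome. Their means were 274 ± 44.5 and 259 ± 17.8 FPKM (SD, n = 4), and Slco1b2 was above Abcd3 in only 2 of 4 livers. Abcg5, a sterol exporter, had a mean of 120 ± 14.1 FPKM and lay above Abcb4, a phospholipid exporter, in all 4 livers. Over the 45 pairs of neighbours in the order of the 46 expressed members, 12 differed in mean by more than the larger of their SDs and 11 kept their order in every liver. With 4 livers a paired exact permutation test cannot give a two-sided p under 0.125, so no order was tested.

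**Figure D1:**
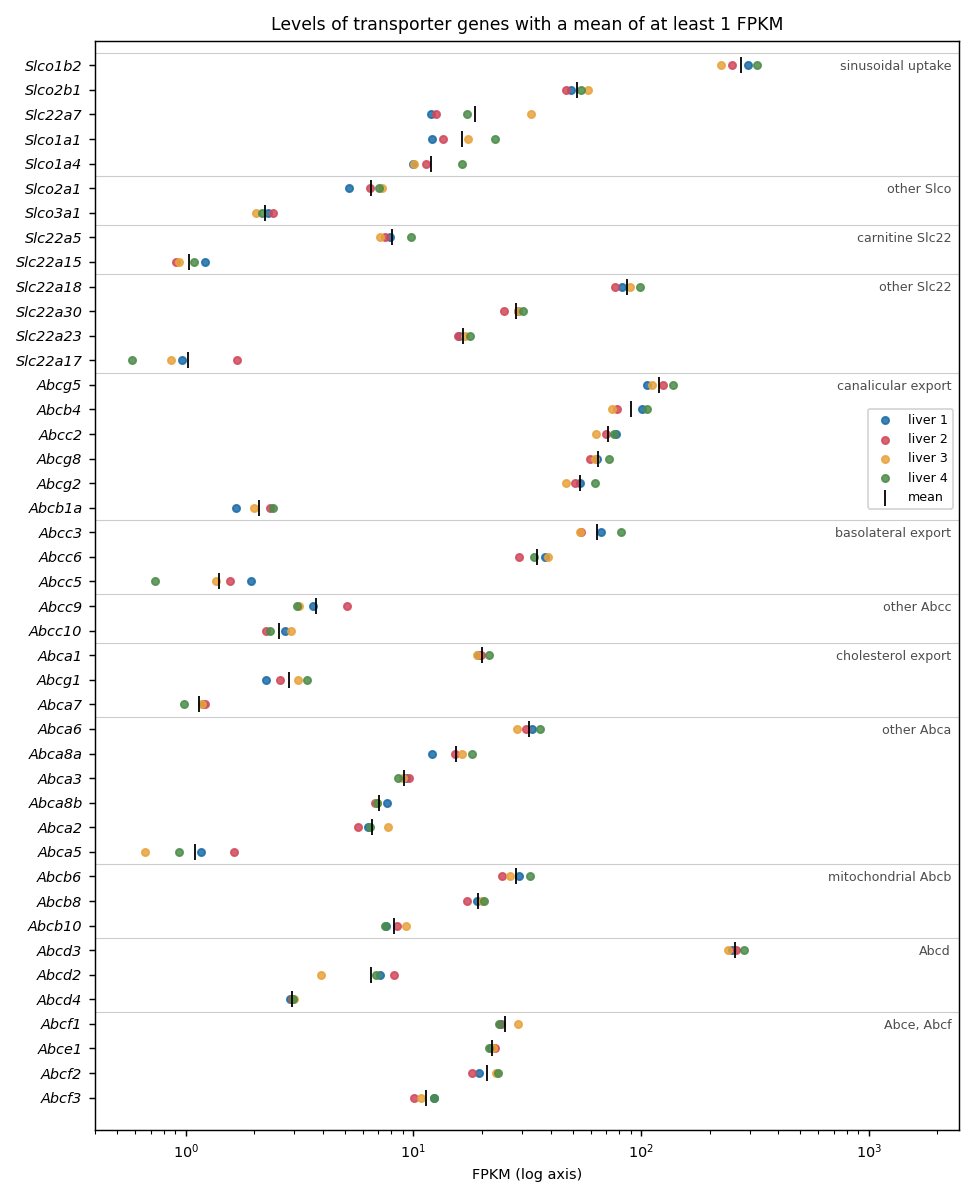
FPKM of 43 of the 46 expressed transporter genes on a log axis, in rows grouped by role, with 1 point for each of the 4 livers and a bar at the mean. Slco1b2 and Abcd3 lie above 200 FPKM, and the points of most genes lie close to each other beside the distance between genes.

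Promoters of the members differ in base composition. A few with few or many CpG dinucleotides are printed here to show the contrast, from the abundant Slco1b2, Abcd3 and Abcc2 and from Slco1a1 and Abce1 of middle level. Each is the stretch before the RefSeq start (GRCm38.p6) and outside the gene itself, read 5′ to 3′ on the gene's strand. Capitals mark CpG dinucleotides and matches to TATAAA on either strand (TATAAA or TTTATA). The sinusoidal carriers Slco1b2 (chr6:141629268-141629451, plus strand, 184 bases) and Slco1a1 (chr6:141946963-141947212, minus strand, 250 bases) hold 0 CpG and 2 matches each.
Slco1b2: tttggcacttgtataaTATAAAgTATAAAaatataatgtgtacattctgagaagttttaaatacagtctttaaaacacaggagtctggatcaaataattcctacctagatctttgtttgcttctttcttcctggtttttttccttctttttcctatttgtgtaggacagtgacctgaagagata
Slco1a1: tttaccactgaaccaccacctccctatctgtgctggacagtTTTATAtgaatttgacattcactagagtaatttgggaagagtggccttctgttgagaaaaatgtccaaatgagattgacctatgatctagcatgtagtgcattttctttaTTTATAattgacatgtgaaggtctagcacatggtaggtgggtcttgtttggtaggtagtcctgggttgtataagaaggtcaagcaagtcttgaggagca
The canalicular conjugate pump Abcc2 (chr19:43782058-43782307, plus strand) holds 1 CpG and no TATAAA match. All 3 of these promoters have a match to AGGTCA, the core site of many nuclear receptors, left here in lower case.
Abcc2: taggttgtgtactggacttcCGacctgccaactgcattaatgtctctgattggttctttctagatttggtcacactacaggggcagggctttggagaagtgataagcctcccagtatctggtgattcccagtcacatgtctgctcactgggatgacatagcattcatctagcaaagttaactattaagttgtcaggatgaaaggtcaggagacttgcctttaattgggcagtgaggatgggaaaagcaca
Peroxisomal Abcd3 (chr3:121815303-121815552, minus strand) holds 34 CpG and the ribosome recycling factor Abce1 (chr8:79711741-79711990, minus strand) holds 20, with no TATAAA match in either.
Abcd3: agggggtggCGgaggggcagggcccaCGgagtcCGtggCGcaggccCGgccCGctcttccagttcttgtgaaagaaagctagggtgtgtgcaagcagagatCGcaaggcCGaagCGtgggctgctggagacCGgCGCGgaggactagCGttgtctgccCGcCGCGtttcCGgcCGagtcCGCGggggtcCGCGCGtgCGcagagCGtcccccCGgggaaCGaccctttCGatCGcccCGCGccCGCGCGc
Abce1: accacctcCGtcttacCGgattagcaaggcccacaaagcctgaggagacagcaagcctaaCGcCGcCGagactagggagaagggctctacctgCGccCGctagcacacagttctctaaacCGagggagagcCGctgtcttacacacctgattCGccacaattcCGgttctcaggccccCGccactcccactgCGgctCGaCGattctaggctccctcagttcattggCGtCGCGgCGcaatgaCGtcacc

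A RefSeq promoter was matched for 72 members, of which 34 were expressed. Windows of the 250 bases before the start were split at 10 CpG. Of the 34 expressed members 19 (55.9%) had at least 10 CpG, where 74.7% of 8128 expressed genes of the table and 38.2% of all 27025 promoters did. Among the 38 matched members below 1 FPKM, 9 (23.7%) had at least 10 CpG. Among the 34 expressed members, some roles lay mostly on 1 side of the split, with no test made. There 0 of 4 sinusoidal uptake carriers and 1 of 6 canalicular exporters (Abcb4, with 18) had 10 CpG or more. In contrast, 4 of 4 Abce and Abcf genes did, with 13 to 25. Of the canalicular exporters under 10 CpG, Abcg5 and Abcg8 have overlapping windows, and Abcb1a and Abcg2 have RefSeq starts outside their spans, as given below. Other roles straddled the split: of the expressed members matched, 3 of 5 other Abca genes, 1 of 2 mitochondrial Abcb genes and 1 of 4 other Slc22 genes had 10 or more. Expressed members under 10 CpG had a median level of 28.2 FPKM and those with at least 10 had 8.20 FPKM. Their median SDs of log2(FPKM + 1) over the 4 livers were 0.17 and 0.13, and over all expressed genes the same split gave 0.18 and 0.16.

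Each motif was searched on both strands, and none of the strings given here contains another. TATAAA was in 7 of 34 expressed members' windows (20.6%), in 6.48% of expressed genes' windows and in 13.0% of all promoters. The windows of Abcg5 and Abcg8 overlap, and both count the 1 match between their starts. AGGTCA was in 6 of 34 (17.6%), in 11% of expressed genes' windows and in 13.8% of all promoters. CACGTG, the E-box, was in 3 (8.82%), near the 8.78% of expressed genes and 6.05% of all promoters. CCAAT was in 7 (20.6%), against 36.6% of expressed genes and 34.5% of all promoters. A match describes letters in the window and no binding was measured. In 62 of the 72 matched members the last 25 bases of RefSeq's full window, which adds 50 bases after the start to the 250 before it, lay in the first 400 bases of a GENCODE transcript. RefSeq's listed start need not be the one used in liver: for 2 of the 34 genes, Abcb1a and Abcg2, it lay more than 1000 bases outside the span in the table.

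**Figure D2:**
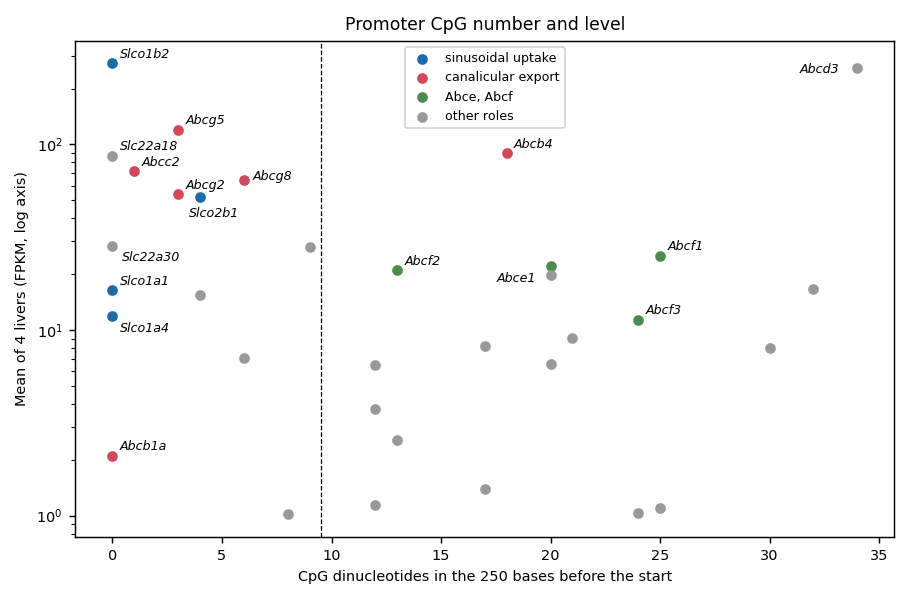
Number of CpG dinucleotides in the 250 bases before the RefSeq start (horizontal axis) against the mean level over 4 livers in FPKM (vertical log axis), 1 point for each of 34 expressed members coloured by role. The dashed line is the split at 10 CpG: all 4 sinusoidal carriers and 5 of 6 canalicular exporters lie left of it, and the Abce and Abcf genes lie right of it, as does Abcd3 at 34. Among these exporters the windows of Abcg5 and Abcg8 overlap, and the starts of Abcb1a and Abcg2 lie outside their spans.

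Of the 8 sinusoidal uptake carriers, 6 were expressed. Slco1b2 (XLOC_017632, chr6:141629518-141686635) was at 296, 252, 224 and 323 FPKM in livers 1 to 4. Liver 4 was highest and liver 1 next, and livers 2 and 3 were lower. Slco2b1, a carrier of steroid sulfates and drugs, was at 49.0, 46.6, 58.2 and 54.4 FPKM, with liver 3 highest.

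The Slco1a genes, organic anion carriers that lie beside Slco1b2 on chromosome 6, were lower and more spread. Slco1a1, which is higher in male than in female mouse liver as background, was at 12.0, 13.5, 17.3 and 22.8 FPKM (mean 16.4 ± 4.81, SD, n = 4), so liver 4 was 1.90 times liver 1. Slco1a4 was at 9.97, 11.4, 10.1 and 16.4 FPKM, with liver 4 above 3 livers that lay close together. Slco1a5 and Slco1a6 were above 0 in 1 liver each, at no more than 0.0619 FPKM. Within each liver Slco1b2 exceeded Slco1a1 by 24.7, 18.7, 12.9 and 14.2 times. Their printed promoters are alike in having no CpG, and their levels differed by more than 10 times in every liver.

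Slc22a7, an organic anion carrier, had the widest range of the uptake carriers. It was at 12.0, 12.6, 32.9 and 17.2 FPKM in livers 1 to 4 (mean 18.7 ± 9.75, SD, n = 4), so liver 3 was 2.74 times liver 1. The hepatocyte transcription factor Hnf4a was also highest in liver 3, at 156 FPKM against 93.9, 104 and 118 FPKM in livers 1, 2 and 4. Its part in the level of Slc22a7 was not tested. The lowest Slc22a7 value rests on about 431 fragments, a counting error of about 4.82%. None of the 6 expressed uptake carriers was above its own mean in liver 2, and 5 of 6 were above it in liver 4, where 45.1% and 60.8% of all expressed genes were above theirs.

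Canalicular exporters were at 404, 387, 361 and 457 FPKM summed, or 22.2% of the members' sum, with 6 of 7 genes expressed. All 6 were above their own means in liver 4 and 0 of 6 in liver 3, where 60.8% and 47.0% of all expressed genes were. Abcg5 and Abcg8 form the paired sterol pump that moves cholesterol and plant sterols into bile. Abcg5 (XLOC_009660) was at 106, 124, 112 and 138 FPKM, and Abcg8 (XLOC_009075) at 63.7, 59.8, 62.9 and 72.1 FPKM. Abcg5 exceeded Abcg8 in all 4 livers, by 1.66, 2.08, 1.78 and 1.91 times (1.86 ± 0.179, SD, n = 4). The table gives both the same span, chr17:84658234-84700333, on which the genes lie head to head, and it does not say how reads were divided between them.

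The 109 bases between the RefSeq starts of the pair (chr17:84683012-84683120, GRCm38.p6, printed on the plus strand, that of Abcg8) serve as the start region of both genes and are shown for that reason. They hold 3 CpG and 1 TATAAA match, in capitals, and 0 matches to AGGTCA.
Abcg5 to Abcg8: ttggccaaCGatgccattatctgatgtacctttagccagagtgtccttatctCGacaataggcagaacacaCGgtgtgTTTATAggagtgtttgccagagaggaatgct

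Abcb4, which moves phosphatidylcholine into bile, was at 101, 78.6, 74.2 and 106 FPKM (mean 89.9 ± 15.7, SD, n = 4). Livers 1 and 4 were high and livers 2 and 3 low, the same division as for Slco1b2. Abcc2, the canalicular pump for bilirubin glucuronide and glutathione conjugates, was at 77.3, 70.0, 63.3 and 75.6 FPKM. Abcg2, an exporter of urate, porphyrins and sulfated conjugates, was at 54.0, 51.4, 46.8 and 63.0 FPKM, and the lowest of all 3 genes was liver 3.

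The drug efflux pumps of the P-glycoprotein type were far lower. Abcb1a was at 1.65, 2.34, 1.99 and 2.42 FPKM and Abcb1b had a mean of 0.345 ± 0.0557 FPKM (SD, n = 4). Abcb4, their neighbour on chromosome 5, exceeded Abcb1a by 61.0, 33.7, 37.4 and 43.6 times in livers 1 to 4. The split between the Abcb1 copies is uncertain, since 17.0% of the 50-base words of Abcb1a recur in other genes, 15.5% in Abcb1b, and 10.1% of its exon bases lie under a gene of the opposite strand.

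Among the genes for export across the basolateral membrane back to blood, Abcc3 and Abcc6 had the highest levels. Abcc3, which exports glucuronides and bile acids, was at 66.9, 54.3, 53.6 and 81.4 FPKM, again with livers 1 and 4 above livers 2 and 3. Abcc6, whose loss causes ectopic mineralisation, was at 38.0, 29.0, 38.9 and 33.7 FPKM. Abcc5, an exporter of cyclic nucleotides, was at 1.94, 1.56, 1.35 and 0.736 FPKM, lowest in liver 4, where the value rests on about 77.8 fragments. Abcc4 and Abcc1 had means of 0.730 and 0.589 FPKM. The ratio of canalicular Abcc2 to basolateral Abcc3 within a liver was 1.16, 1.29, 1.18 and 0.929, so Abcc3 exceeded Abcc2 in liver 4 only.

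Peroxisomal and lysosomal Abcd genes were expressed in 4 of 4 cases, with Abcd3 far above the others. Abcd3 (XLOC_014092, chr3:121758910-121815215) was at 252, 261, 241 and 283 FPKM. Abcd2, an importer of very long chain acyl-CoA, was at 7.14, 8.22, 3.94 and 6.84 FPKM, with liver 3 lowest. Abcd4, a lysosomal protein of cobalamin transport, was at 2.88, 2.94, 2.98 and 2.95 FPKM, a ratio of highest to lowest liver of 1.03 that was the smallest of the 46. At that level counting alone gives an error of about 9.03% in the liver with the fewest fragments, about 123, which is wider than the observed range.

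The Abce and Abcf ATPases had ratios of highest to lowest liver from 1.06 to 1.30. Abce1, which splits ribosomes after termination, was at 21.9, 22.8, 22.3 and 21.5 FPKM, a ratio of 1.06. Abcf1, a factor of translation initiation, was at 24.3, 23.9, 28.8 and 23.9 FPKM, so liver 3 was above 3 livers that nearly coincided. Abcf2 was at 19.3, 18.0, 23.0 and 23.4 FPKM and Abcf3 at 12.3, 10.1, 10.8 and 12.3 FPKM.

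The mitochondrial Abcb genes were expressed at moderate levels, and lysosomal Abcb9, a peptide transporter, had a mean of 0.878 FPKM. Abcb6, a porphyrin transporter, was at 29.2, 24.4, 26.5 and 32.5 FPKM. This value is uncertain, because 90.3% of the 50-base words of Abcb6 recur in Gm29253, an annotated gene on the same strand that covers 55.2% of its exon bases. Abcb8 was at 17.2 to 20.4 FPKM. Abcb10, needed for heme synthesis, was at 7.47 to 9.28 FPKM, with 10.3% of its exon bases under a gene of the opposite strand.

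Cholesterol and phospholipid exporters of the cell surface were led by Abca1, which loads apolipoprotein A-I to form high density lipoprotein. It was at 19.3, 19.7, 19.1 and 21.5 FPKM (mean 19.9 ± 1.11, SD, n = 4), and the livers differed little. Abcg1, which passes cholesterol to that lipoprotein and is prominent in macrophages, was at 2.25, 2.59, 3.10 and 3.41 FPKM. Summed levels of 6 macrophage markers were 58.2, 72.0, 52.7 and 73.0 FPKM, with livers 2 and 4 close together and liver 3 lowest, where Abcg1 was lowest in liver 1. Of these markers Adgre1, Csf1r and Marco were highest in liver 2, and Cd68, the largest part of the sum, Clec4f and Vsig4 were highest in liver 4, as was Abcg1. Their part in the level of Abcg1 was not tested. Abca7 was at 1.19, 1.21, 1.18 and 0.980 FPKM, on a merged span (chr10:79697305-80369637) that the table also gives to 48 other rows.

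Other Abca genes, most of them lipid transporters, were expressed in 6 of 14 cases. Abca6 and Abca8a, members of a cluster on chromosome 11, were at 33.1, 31.3, 28.4 and 35.8 FPKM and at 12.1, 15.2, 16.4 and 18.0 FPKM. Their neighbours in that cluster were lower: Abca8b was at 6.76 to 7.68 FPKM, and Abca5 at 1.16, 1.63, 0.664 and 0.938 FPKM, and Abca9 had a mean of 0.669 FPKM. Abca3, the phospholipid transporter of lung lamellar bodies, was at 8.59 to 9.54 FPKM, and Abca2 at 5.73 to 7.76 FPKM. Retinal Abca4 had a mean of 0.0427 FPKM, and Abca12 (skin) and Abca13 were listed at 0.

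Of the remaining Slc22 genes, Slc22a18, an orphan carrier in an imprinted region, was the highest, at 82.5, 76.8, 89.2 and 98.6 FPKM. Slc22a30 was at 28.7, 24.99, 28.9 and 30.3 FPKM, with liver 2 below the others. It belongs to a cluster of close copies on chromosome 19, and 35.9% of its 50-base words recur in other genes, 32.0% in Slc22a28, which had a mean of 0.363 FPKM. Slc22a23 was at 15.8 to 17.7 FPKM. The carnitine carrier Slc22a5 was at 7.86, 7.49, 7.11 and 9.74 FPKM, and exceeded Slc22a4, the ergothioneine carrier, by 9.36 to 18.7 times. Of its 50-base words 27.1% recur in other genes, 26.9% in Slc22a21. Slc22a15 was at 0.907 to 1.21 FPKM.

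Several members were low, some of them known from cells other than hepatocytes. Slco2a1, the prostaglandin carrier of endothelium, was at 5.20, 6.41, 7.31 and 7.05 FPKM. Abcc9, a potassium channel subunit of mural cells, was at 3.62, 5.11, 3.14 and 3.09 FPKM, highest in liver 2. Slc22a17, a receptor for lipocalin 2, was at 0.967, 1.68, 0.857 and 0.583 FPKM, also highest in liver 2. In that liver 6 sinusoidal endothelial markers summed to 55.4 FPKM (42.7 to 54.3 FPKM in the others) and 6 stellate cell markers to 259 FPKM (166 to 199 FPKM in the others). Clec4g, at 28.5 FPKM the largest part of the endothelial sum, was highest in liver 4, and the other 5 endothelial markers were highest in liver 2. Most of the stellate sum was Dcn, at 194 FPKM in liver 2, and of the same 6 markers Lrat and Des were highest in liver 1 and Reln in liver 4. Their part in these levels was not tested. The table gives Abcc9, as it does Abcc10, Abca2, Abca3 and Abcf1, the same span as 1 other row. Abcc10 and Slco3a1 were at 2.24 to 2.90 FPKM and at 2.04 to 2.41 FPKM.

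The 15 members listed at 0 in all 4 livers were Abca12, Abca13, Abca15, Abca16, Abcb5, Abcc8, Slco4c1, Slco6b1, Slco6c1, Slco6d1, Slc22a6, Slc22a16, Slc22a19, Slc22a20 and Slc22a22. Among them are the renal organic anion carrier Slc22a6, the beta cell channel subunit Abcc8 and the testis genes of the Slco6 group. The renal carriers Slc22a8, Slc22a12 and Slc22a2 had means of 0.00991, 0.0230 and 0.0333 FPKM, which is under the value of 1 fragment on 1 kb. A value listed at 0 can be a failed estimate, as Alb shows, so it does not establish absence. A further 29 members (32.2%, against 24.1% of all rows) were above 0 with a mean below 1 FPKM, from Abcg3 at 0.893 FPKM down to Abca17 at 0.00571 FPKM, and no member was at 0 in 1 liver and at 1 FPKM or more in another.

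The spread between livers was close to that of the whole table. The median SD of log2(FPKM + 1) was 0.16 for the 46 expressed members and 0.16 for all 10541 expressed genes. The median ratio of highest to lowest liver was 1.31 for members and 1.34 for all. A ratio of 2 marks the wide end: 5 members reached it, where 6.54% of expressed genes did. They were Slc22a17 (2.88), Slc22a7 (2.74), Abcc5 (2.64), Abca5 (2.46) and Abcd2 (2.09). Slc22a17 and Abca5 passed the minimum of 1 FPKM only through liver 2, where they were highest: their means without it were 0.803 and 0.922 FPKM. The count rests on single livers: without liver 2 or without liver 3 it was 2, and without liver 4 it was 3. Slc22a7 dropped out without liver 3, Abcc5 without liver 4, Slc22a17 without liver 2 or 4, and Abca5 and Abcd2 without liver 2 or 3. In 3 members, Abca7, Abca8b and Abcf1, 1 liver stood apart from the other 3 by Dixon's ratio, the gap to the nearest liver over the whole range, where 5.46% of expressed genes were past its critical value. After median-ratio scaling only Abca7 of these was past it, with Slc22a30 in addition.

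**Figure D3:**
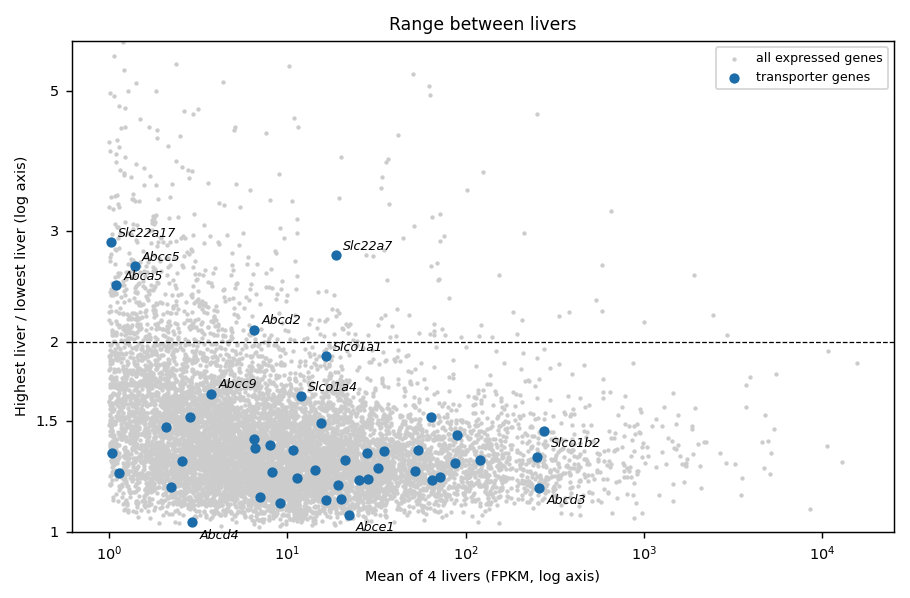
Mean of 4 livers in FPKM (horizontal log axis) against the ratio of the highest to the lowest liver (vertical log axis), with 46 transporter genes in blue over all expressed genes in grey, and a dashed line at a ratio of 2. The 5 members above the line are named, 3 of them lie near 1 FPKM, and 43 genes beyond the axis are not drawn.

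Liver 4 was the highest for many members. Of the 46, 24 were highest there, where 33.3% of all expressed genes were, and 8 were lowest there, where 18.1% were. Liver 2 was highest for 8 members and lowest for 16, where 22% and 29.9% of expressed genes were. Slc22a17 and Abca5, which count as expressed only through liver 2, are among these 8. After scaling the livers to equal median ratios, 19 members were highest in liver 4, against 23.3% of expressed genes. The median deviation of members from their own means in log2(FPKM + 1) was -0.01, -0.07, -0.03 and 0.10 in livers 1 to 4, and that of all expressed genes was -0.01, -0.02, -0.01 and 0.04. The members' value in liver 4 was 0.05 after median-ratio scaling, and also 0.05 with a minimum of 0.1 FPKM. Summed hepatocyte markers were also highest in liver 4, at 30338 FPKM against 21888 to 23817 FPKM in the others, a sum carried by Apoa1, Ttr and Cyp2e1. Hnf4a and Cps1, of the same list, were highest in liver 3, at 156 and 748 FPKM against 118 and 617 FPKM in liver 4. The part of hepatocyte content in the members' levels was not tested.

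The roles differed in this, and scaling lowered the liver 4 values of all of them. Among roles with at least 4 expressed genes, the median deviation in liver 4 was 0.22 for 6 sinusoidal uptake carriers and 0.17 after median-ratio scaling. It was 0.18 for 6 canalicular exporters (0.13 scaled), 0.14 for 4 mitochondrial Abcb genes (0.09 scaled) and 0.10 for 4 other Slc22 genes (0.05 scaled). The 4 Abcd genes were at 0.05 (0.01 scaled), and the 4 Abce and Abcf genes at 0.03, which turned to -0.01 after scaling. The 6 other Abca genes were at -0.02 (-0.07 scaled), although their summed level was highest in liver 4, at 77.3 FPKM against 69.7 to 71.3 FPKM. In liver 2 the same 7 roles were at -0.18, -0.04, -0.11, -0.12, 0.01, -0.11 and -0.02 in this order. Roles with 2 or 3 expressed genes ranged from -0.14 to 0.15 in liver 4 and from -0.21 to 0.13 in liver 2. No test of these differences was made, since the livers are 4 animals of 1 group.

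**Figure D4:**
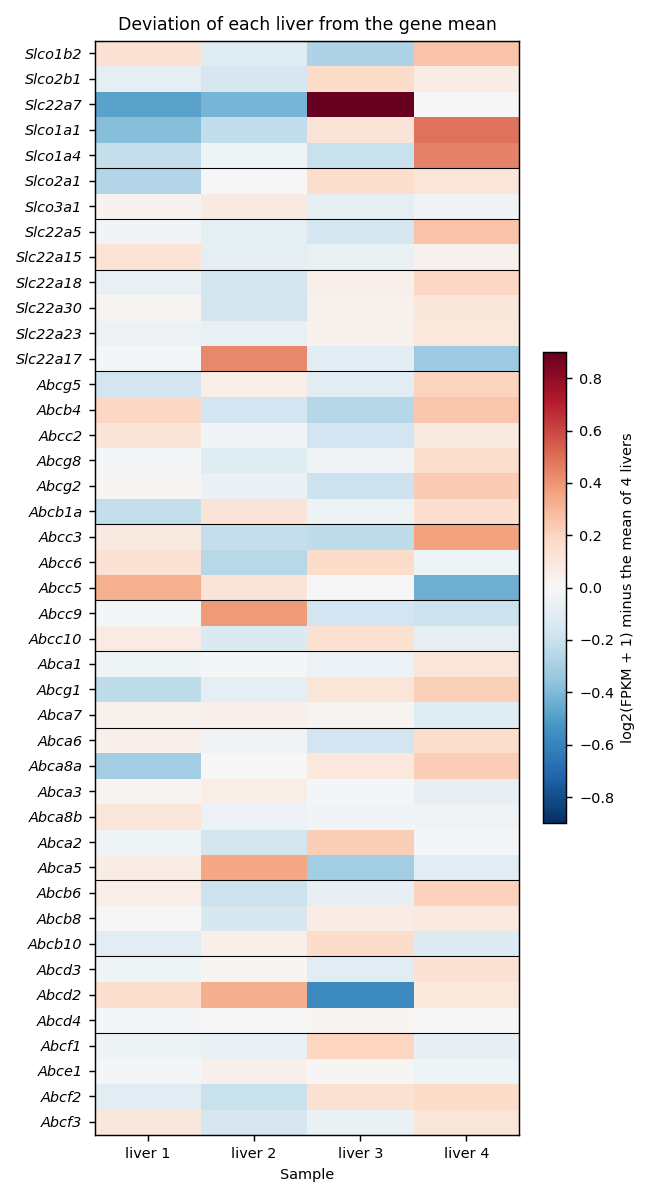
Difference of log2(FPKM + 1) in each liver from the mean of 4 livers, as a colour, for 43 of the 46 expressed members in rows grouped by role, with red above and blue below the mean. Slc22a7 is high in liver 3 only, Abcd2 is low in liver 3, and the canalicular exporters from Abcg5 to Abcb1a are all above their means in liver 4.

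Other transporters and regulators give the setting of these levels. The sodium-dependent bile acid uptake carrier Slc10a1 was at 524, 533, 546 and 651 FPKM, above every member in each liver, and liver 4 was again highest. Slc47a1, which extrudes organic cations, was at 51.4, 46.6, 48.0 and 58.4 FPKM. Of the basolateral bile acid exporter pair, Slc51a was listed at 0 in all livers and Slc51b was at 0.349 to 1.52 FPKM. Of 9 such solute carriers 7 were expressed, and of 11 nuclear receptors and factors known to control transporter genes all 11 were. Among these, the bile acid receptor Nr1h4 was at 72.1, 88.4, 66.4 and 94.7 FPKM, and its target Nr0b2 at 61.1, 34.3, 36.1 and 15.7 FPKM, highest in liver 1 and lowest in liver 4. The liver X receptor Nr1h3, which drives Abca1, Abcg5 and Abcg8 as background, was at 49.8, 46.3, 59.8 and 52.4 FPKM.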

How the data were processed

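Poly(A)-enriched RNA of 4 livers was sequenced, per the labels' protocols. FastQC 0.10.1, Trim Galore 0.6.3, cutadapt, STAR 2.7.6a, Cufflinks 2.2.1 and the mm10 build are named in the submitters' processing notes. The authors deposited 1 table of values per gene, used here as FPKM: the unit is inferred from the values, which fall with transcript length at low levels. Counts and the strand setting are not given in the sources used here. Columns were matched to livers by the sample descriptions, leaving 0 columns unmatched. The labels number the livers without naming the animals; each liver was taken as 1 mouse, and the SDs measure the spread between these samples.

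Starts in the table were raised by 1, which made 36 members' starts equal to RefSeq's (6 as deposited), and spans of 89 of 89 matched members overlapped RefSeq's in GRCm38. Spread is the SD of log2(FPKM + 1), a scale that understates differences at low levels. A mean of 1 FPKM was the minimum for an expressed gene. The gap of the extreme liver over the range was compared with Dixon's 95% critical value. Depth came from genes with 1 annotated transcript longer than 800 bases. Shared sequence was counted in 50-base words of GENCODE vM21 transcripts, and promoters came from the RefSeq table of GRCm38.p6. Every expressed member could be named with its 4 values, apart from a few items that are not reported here, lower members by name or range, and other genes came from fixed partner and marker lists. The members and lists were chosen with earlier results of these data known. Planned protein features were not computed. Alternatives were other minimums, pseudocounts, median-ratio scaling and leaving out each liver. Python 3.11.15, pandas 2.3.3, numpy 2.4.6 and matplotlib 3.10.9 were used, and the scripts were tested on simulated data.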

Additional observations from a re-analysis of the deposited data

Results flagged for a closer look

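In 4 values, the gap between the extreme liver and its neighbour divided by the range is past Dixon's 95% critical value in about 1 of 20 groups by chance. It was past that value for 3 of 46 expressed members, where 5.46% of all expressed genes were past it. Abcf1 had a ratio of 0.912, with liver 3 above the others. Abca8b had 0.840, with liver 1 above the others. Abca7 had 0.849, with liver 4 below the others, on a span shared with 48 other rows. Among the other transporter and regulator genes, the lactate carrier Slc16a1 had 0.874, with liver 3 lowest at 9.97 FPKM. Nr1h2, a liver X receptor, had 0.932, with liver 3 highest at 25.7 FPKM. Ahr, the receptor of aromatic hydrocarbons, had 0.859, with liver 1 highest at 5.23 FPKM.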

How the results depend on the processing

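The mean of Slc22a7, 18.7 FPKM, was 13.9 FPKM without liver 3 and 19.2 to 20.9 FPKM without another liver. The median SD of members, 0.16, was 0.10 with no filter on low values and 0.14 to 0.16 with each liver left out. The count of members with a ratio of highest to lowest liver of at least 2, 5 as reported, was 11 with a minimum of 0.1 FPKM, 2 with a minimum of 5 FPKM, and 1 when 1 was added to each value first, and it ranged from 2 to 5 with each liver left out. The count past Dixon's ratio, 3, was 5 with a minimum of 0.1 FPKM. Median-ratio scaling kept Abca7 past that ratio, added Slc22a30, and left out Abca8b and Abcf1. The factors of that scaling were 0.994, 0.985, 0.989 and 1.036 for livers 1 to 4. Role values under that scaling were added after the data were seen. The causes of these changes were not tested. No groups could be paired, since the livers form 1 group, and ratios between genes within livers were not tested. Values near 0.05 FPKM rest on about 1 fragment per kb, and for Slc22a17 the lowest liver holds about 23.6 fragments, a counting error of about 20.6%.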
